A study of Mus musculus with 8 samples.

Results

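The genes described here encode the nuclear part of respiratory complex I in mouse kidney, together with factors that help to build it. They are the 45 protein-coding genes of the deposited table whose names begin with Nduf, of 23386 genes in all. By their known roles, 36 of the 45 encode subunits of complex I (7 core subunits, 9 accessory subunits of the peripheral arm, 19 of the membrane arm and 1 acyl carrier protein), and 7 encode assembly factors. The other 2 carry the name for historical reasons. Ndufa4 is now counted as a subunit of complex IV, and Ndufa4l2 is its paralogue, so that 43 of the 45 fit the description of complex I subunit and assembly genes. Poly-T selected RNA was sequenced from the whole left kidney of 4 Ctrp1-/- mice (KO) and 4 wild-type littermates (WT), all of 49 weeks and labelled C57BL/6J. The KO mice lack part of exon 4 of C1qtnf1, the gene of the secreted protein CTRP1. Targeting was done in stem cells of 129S5 embryos, with later backcrossing. Each kidney gave 1 library, and the sources used here do not give the sex of each mouse.

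Complex I takes electrons from NADH and passes them to ubiquinone while it pumps protons across the inner mitochondrial membrane. It has the shape of an L. The peripheral arm stands in the matrix and holds the flavin and the iron-sulfur clusters that carry the electrons, and the membrane arm pumps the protons. The core subunits do the chemistry and are shared with bacteria, those of the membrane arm being encoded in mitochondrial DNA, while the accessory subunits surround and stabilise the core. Assembly factors join the modules and leave before the enzyme is complete. In the kidney the proximal tubule and the thick ascending limb are especially rich in mitochondria, because reabsorption of salt and solutes runs on ATP.

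The libraries held between 15027400 and 19256378 counted reads, of which the 45 Nduf genes took 0.554% to 0.569% in the KO libraries and 0.557% to 0.599% in the WT libraries. Between libraries of the same genotype the chi-square of the read counts, divided by its degrees of freedom, was 6.23 to 17.8, well above sampling noise, and each library stands as its own sample. C1qtnf1, the targeted gene, measured 0.188, 0.575, 0.228 and 0.311 scaled FPKM in the KO libraries, against 3.85, 2.74, 3.18 and 4.75 in the WT libraries (log2 fold change -2.32, SE 0.18, limma adjusted p = 0.000768). Scaled FPKM is the deposited FPKM (fragments scaled for gene length and library depth) divided by 1 factor per library. WT replicate 3 stood apart from the other WT libraries. Havcr1, the gene of the tubule injury marker KIM-1, was at 4.73 scaled FPKM there and at 0.519 to 1.89 in the other WT libraries, against 0.482 to 0.656 in the KO libraries. Counts, and the fold changes of genes that turned on WT replicate 3, are therefore also given without it.

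All 45 Nduf genes passed the filter on low values, a mean of at least 0.5 scaled FPKM, and were tested among 14022 genes. No Nduf gene (0 of 45) passed an adjusted p of 0.05 in limma, where 0.0499% of all genes tested did. limma's voom, run on the recovered reads, called 0 of the 45 as well. At an unadjusted p under 0.05 there were 8 Nduf genes by limma (17.8%, against 15.4% of all genes tested) and 7 by voom, for which the share of all genes is not given here. Of the 8, 6 were lower in KO (8.26% of all genes were) and 2 were higher (7.18% of all genes). The values of the KO and WT libraries did not overlap for 3 of the 45, Ndufs7, Ndufb2 and Ndufaf5, where 8.62% of all genes showed no overlap. The share lower was 13.3% and the share higher 4.44% of the 45.

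The differences were small. The log2 fold change of KO over WT ran from -0.45 for Ndufa4l2 to 0.29 for Ndufb2, with SE between 0.046 and 0.16. Its median over the 45 was -0.051, against -0.0012 over all genes tested, and 32 of the 45 (71.1%) lay below 0, as did 50.4% of all genes. With quantile normalization the median was -0.018 and 25 of the 45 (55.6%) lay below 0. For 43 of the 45 genes the 95% interval of the log2 fold change lay between -0.5 and 0.5. The exceptions were Ndufa4l2, with an interval of -0.82 to -0.08, and Ndufb2, with 0.05 to 0.53. In bulk kidney, fewer cells of a type and less RNA per cell cannot be told apart.

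**Figure D1:**
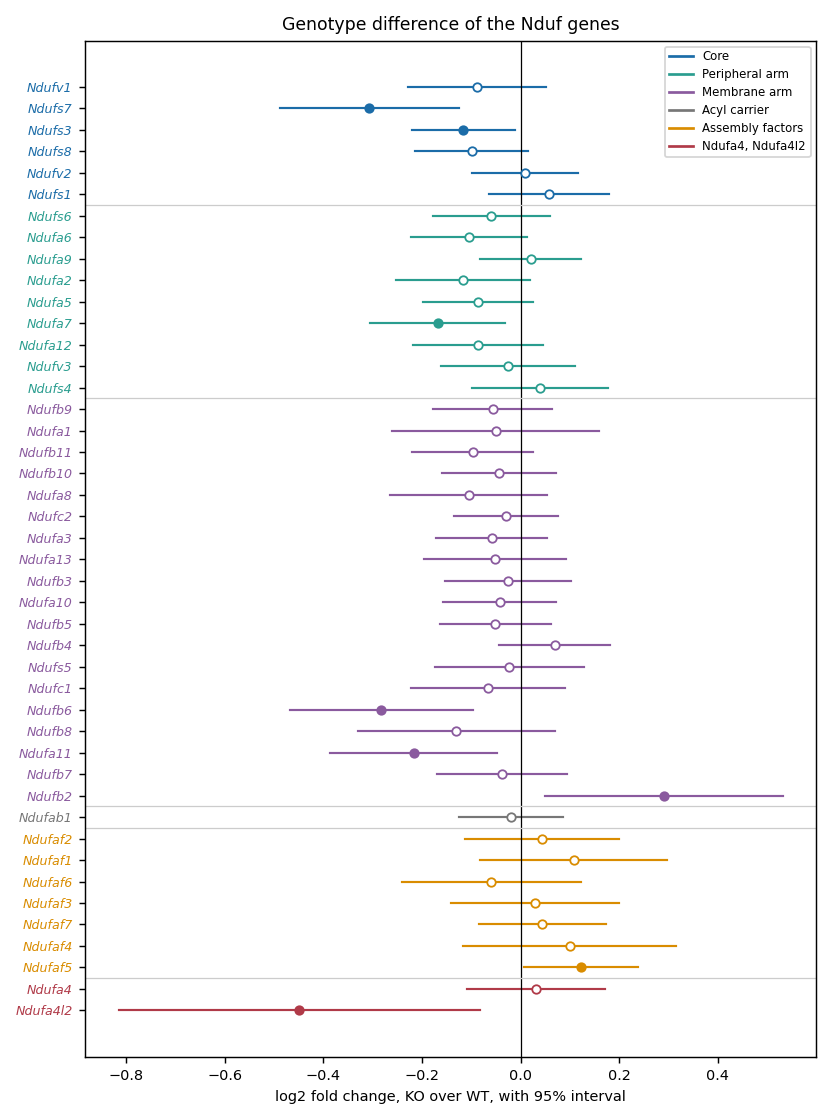
Genotype difference, KO over WT, of 44 Nduf genes on a log2 horizontal axis, grouped and coloured by role; points are limma estimates, lines are 95% intervals, and filled points have an unadjusted p under 0.05. Of the 44 points 31 lie left of 0, and 6 of the 7 assembly factors lie right of it.

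The genes differed far more from each other than between genotypes. Over the 8 libraries the mean level of the 36 subunit genes ran from 1.79 to 333 scaled FPKM with a median of 124, and that of the 7 assembly factor genes ran from 9.95 to 23.9 with a median of 16.0. Ndufb2 (1.79) and Ndufb7 (19.2) were the subunit genes with means below that of the highest assembly factor gene. Among the 7 core subunits, which stand in equal numbers in the enzyme, the levels spanned 2.69-fold. Among the 9 accessory subunits of the peripheral arm they spanned 5.52-fold, and among the 19 of the membrane arm 187-fold.

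Levels per length depend on the gene length that the authors used, and this was long for some subunits. The length in the table was 1.90 times the longest coding sequence at the median. It was 4371 bases for Ndufb2, whose coding sequence has 315, and 4435 bases for Ndufb7, whose coding sequence has 411. Ndufab1 (3479 and 468 bases) and Ndufa11 (2661 and 429 bases) were of the same kind. The spans of 10 of the 45 genes overlap another gene of the table, and in 5 of them the overlap reaches coding bases. For Ndufb2 it covers 77.1% of the coding bases, mainly through Adck2, whose span in the table runs into Ndufb2 on the same strand, and for Ndufa13 it covers 100%, through Yjefn3. For Ndufs1, the core subunit gene of lowest level, it covers 55.0%, mainly through Ino80dos on the other strand. Whether overlap or length lowered the level of a gene was not tested. The listed length is the same in every library and so does not enter the comparison of genotypes. Reads of an overlapping gene could, and Adck2 measured 6.04 ± 0.360 scaled FPKM in KO and 6.51 ± 0.756 in WT (SD, n = 4 each).

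**Figure D2:**
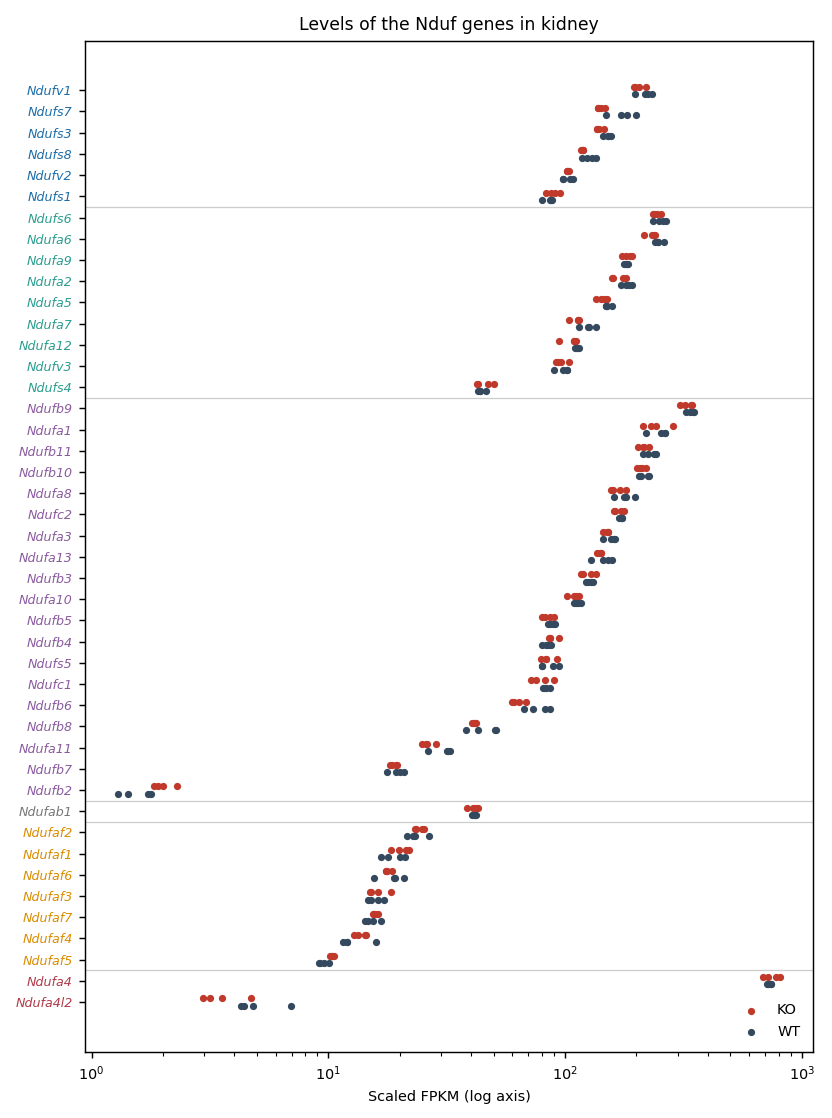
Scaled FPKM (horizontal log axis) of 44 Nduf genes in each kidney library, KO points above WT points, with gene names coloured by role as in the plot of fold changes. Ndufa4 stands highest, at 683 to 810 in KO and 712 to 744 in WT, and Ndufb2 lowest, at 1.83 to 2.30 in KO and 1.30 to 1.78 in WT.

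The promoters were searched for 4 short motifs bound by known regulators of mitochondrial genes. Promoters from RefSeq (build GRCm38.p6, 250 bases before the start of the gene to 50 after it) were used for 39 of the 45 genes. These were 41 promoters in all. Among the genes without a promoter here, 1 was left out by choice. The larger promoter sets used for comparison were not filtered in this way, so the shares were not computed quite alike. The motif of NRF1, the nuclear respiratory factor, was taken as GCGCA and GCGC with any base between them, and stood in 10 of the 41 promoters (24.4%), against 7.73% of the 16290 promoters of protein-coding genes in the table and 4.603% of all 32851 promoters. AAGATGGC, bound by YY1, stood in 7 (17.1%, against 3.44% and 2.75%). CCGGAAG, bound by GABP and other ETS factors, stood in 5 (12.2%, against 13.6% and 8.86%), and AAGGTCA, bound by the estrogen-related receptors, in 3 (7.32%, against 3.63% and 4.72%). Both strands were read. Ndufa5 entered the NRF1 count through overlapping promoters that hold the same site, so the 10 promoters belong to fewer than 10 genes. The ETS and YY1 motifs can share the letters AAG where one follows the other, and a match of each was counted on its own. The 30-base windows below, on the strand of the gene and with the match in capitals, show 1 match each for genes whose values are given per library; Ndufs3 holds a further ETS match. A match is a description of the letters and not a bound site.
Ndufs7, YY1 motif, chr10:80249462-80249491, plus strand: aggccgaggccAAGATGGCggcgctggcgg
Ndufs3, ETS motif, chr2:90904730-90904759, minus strand: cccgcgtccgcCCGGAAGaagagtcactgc
Ndufs8, ETS motif on the other strand, chr19:3912741-3912770, minus strand: ttaggctccgcCTTCCGGttgaaccgcatc
Ndufb6, ETS motif on the other strand, chr4:40279635-40279664, minus strand: tcgtccttgttCTTCCGGtcccctccccta
Ndufa6, NRF1 motif on the other strand, chr15:82354249-82354278, minus strand: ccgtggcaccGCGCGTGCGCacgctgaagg
Ndufa11, NRF1 motif, chr17:56717692-56717721, plus strand: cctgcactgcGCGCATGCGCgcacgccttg
Ndufaf5, NRF1 motif, chr2:140170652-140170681, plus strand: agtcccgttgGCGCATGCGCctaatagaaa
Ndufb2, estrogen-related receptor motif, chr6:39592373-39592402, plus strand: ggagcagcagtAAGGTCAgccaagagcacc

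Among the core subunits, Ndufs7 showed the largest difference. It encodes the subunit with the last iron-sulfur cluster of the chain, next to the ubiquinone site, and lies on chromosome 10 (80249121 to 80256794, plus strand, mm10). It measured 138, 138, 147 and 142 scaled FPKM in the KO libraries, against 182, 200, 149 and 173 in the WT libraries. All 4 KO libraries lay below every WT library, and WT replicate 3 was the WT library nearest to them. With quantile normalization the groups overlapped. The means were 142 ± 4.29 in KO and 176 ± 21.3 in WT (SD, n = 4 each), a log2 fold change of -0.31 (SE 0.081, limma adjusted p = 0.173). Without WT replicate 3 it was -0.38, with a limma adjusted p of 0.0659, which still missed the threshold. Over the alternatives tried, its adjusted p ran from 0.0659 to 0.366, limma's voom included. The promoter window of Ndufs7 printed above holds the YY1 motif.

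Ndufs3 encodes a subunit that links the parts of the peripheral arm. It measured 147, 136, 137 and 139 scaled FPKM in KO, against 152, 157, 145 and 152 in WT, so that the groups overlapped only in the highest KO and the lowest WT library. The log2 fold change was -0.12 (SE 0.047, limma adjusted p = 0.285). Ndufs8, which carries a pair of iron-sulfur clusters, was very even in KO at 119, 117, 119 and 118, against 136, 130, 118 and 124 in WT (-0.10, SE 0.051, limma adjusted p = 0.374, and -0.13 without WT replicate 3, adjusted p = 0.136). Its KO values all lay below 3 of the WT libraries and around WT replicate 3. The log2 fold change of Ndufs8 was -0.068 without WT replicate 1, with a limma adjusted p of 0.621.

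Ndufv1 encodes the subunit that binds NADH and the flavin. It measured 220, 198, 196 and 206 scaled FPKM in KO, against 224, 234, 198 and 217 in WT (log2 fold change -0.087, limma adjusted p = 0.525). WT replicates 3 and 4 lay within the KO range, and the other WT libraries lay above it. The log2 fold change was -0.13 without WT replicate 3 and -0.056 without WT replicate 2, and -0.0049 with GC and length trends removed.

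Ndufv2 and Ndufs1 lay slightly above 0. Ndufv2, the partner of Ndufv1 in the NADH-binding part, measured 104, 102, 102 and 103 scaled FPKM in KO, against 97.7, 105, 109 and 97.95 in WT. Ndufs1, the largest core subunit and the one with the most iron-sulfur clusters of the arm, measured 95.04, 83.5, 87.6 and 90.7 in KO, against 80.3, 86.4, 88.4 and 87.5 in WT. The 95% intervals of their log2 fold changes were -0.10 to 0.12 for Ndufv2 and -0.06 to 0.18 for Ndufs1. Both intervals included 0, so the sign of these small differences is not settled. Ndufv2 lay below 0 without WT replicate 1 (-0.014) or without WT replicate 4 (-0.012). None of the 7 core genes passed.

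Of the 9 accessory subunits of the peripheral arm, 7 lay below 0 and 1 had an unadjusted p under 0.05 (median log2 fold change -0.085). That gene, Ndufa7, measured 114, 104, 113 and 115 scaled FPKM in KO, against 126, 136, 114 and 125 in WT. WT replicate 3 lay among the KO libraries and the other 3 WT libraries above them (-0.17, SE 0.061, limma adjusted p = 0.256, and -0.21 without WT replicate 3, adjusted p = 0.0877). The log2 fold change of Ndufa7 was -0.13 without WT replicate 2, with a limma adjusted p of 0.482. Ndufa6 encodes a subunit of the LYR family that holds the acyl carrier protein on this arm. It measured 237, 215, 234 and 240 in KO, against 262, 247, 239 and 246 in WT, and only WT replicate 3 fell into the KO range (-0.10, SE 0.053, limma adjusted p = 0.369, and -0.12 without WT replicate 3, adjusted p = 0.223). The log2 fold change of Ndufa6 was -0.081 without WT replicate 1, with a limma adjusted p of 0.599. The NRF1 match in its window, like that of Ndufa11, stood among genes below 0, while that of Ndufaf5 stood at a gene above 0.

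Other genes of this arm are given by their means. Ndufs6, which binds zinc, was among the highest of the set at 243 ± 8.47 scaled FPKM in KO and 253 ± 13.2 in WT (SD, n = 4 each). Ndufs4, whose loss causes Leigh-like disease in mice, was the lowest of the arm at 45.6 ± 3.64 in KO and 44.2 ± 1.5 in WT. Ndufab1, the acyl carrier protein that sits in both arms and also serves fatty acid synthesis in mitochondria, measured 41.0 ± 1.84 in KO and 41.5 ± 0.716 in WT.

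Of the 19 accessory subunits of the membrane arm, 17 lay below 0 (12 with quantile normalization), with a median log2 fold change of -0.051. At an unadjusted p under 0.05, 2 were lower and 1 was higher. Ndufb6 measured 68.5, 64.0, 59.9 and 60.9 scaled FPKM in KO, against 86.8, 82.4, 66.9 and 73.4 in WT. Its groups overlapped only between KO replicate 1 and WT replicate 3 (log2 fold change -0.28, SE 0.083, limma adjusted p = 0.193, and 0.0672 without WT replicate 3). The log2 fold change of Ndufb6 was -0.25 without WT replicate 2, with a limma adjusted p of 0.408. Ndufa11, a subunit that helps to hold the membrane arm together, measured 28.6, 24.8, 25.8 and 26.05 in KO, against 31.8, 32.6, 26.4 and 32.2 in WT. WT replicate 3 lay within the KO range while the other 3 WT libraries lay above it (-0.22, SE 0.076, limma adjusted p = 0.243, and -0.29 without WT replicate 3, adjusted p = 0.0668). The log2 fold change of Ndufa11 was -0.19 without WT replicate 2, with a limma adjusted p of 0.463.

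Ndufb2 was the only gene of this arm that was higher at an unadjusted p under 0.05. It measured 2.30, 2.01, 1.91 and 1.83 scaled FPKM in KO, against 1.43, 1.78, 1.30 and 1.73 in WT, so that the groups did not overlap, the nearest libraries being KO replicate 4 and WT replicate 2 (log2 fold change 0.29, SE 0.11, limma adjusted p = 0.260). Behind these values stood 148, 175, 145 and 132 reads in KO, against 99, 138, 91 and 122 reads in WT. This level rests on a table length of 4371 bases and on the overlap with Adck2 described above. The value for Ndufb2 is therefore uncertain.

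The remaining 16 genes of the membrane arm had intervals that included 0. Ndufb9, a further LYR protein, was the most abundant at 327 ± 17.4 scaled FPKM in KO and 339 ± 11.6 in WT (SD, n = 4 each). The X-linked genes Ndufa1 and Ndufb11 measured 243 ± 30.5 and 214 ± 8.76 in KO, against 251 ± 21.3 and 229 ± 12.6 in WT. Ndufb8, whose protein is a common marker of assembled complex I on blots, was tight in KO at 41.5 ± 0.784 and spread in WT at 45.8 ± 6.39. Ndufa13, also known as GRIM-19, measured 140 ± 2.53 in KO and 145 ± 12.7 in WT.

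**Figure D3:**
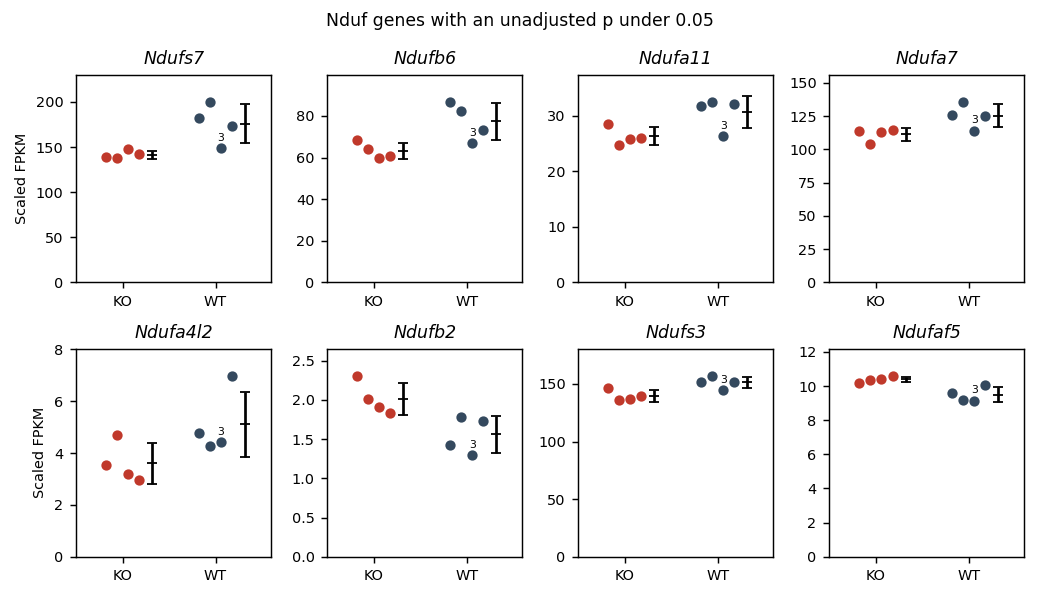
Scaled FPKM (vertical axes, linear from 0) of the 8 Nduf genes with an unadjusted p under 0.05, in KO and WT libraries; points are libraries, bars beside them are the mean ± SD (n = 4), and WT replicate 3 is marked 3. The marked library is the lowest of the WT group in 7 of the 8, nearest to KO in Ndufs7, Ndufb6, Ndufa11, Ndufa7 and Ndufs3 and farthest from KO in Ndufb2 and Ndufaf5.

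Assembly factor genes stood on the other side. Of the 7, 6 lay above 0 (median log2 fold change 0.044), and the same count held with FPKM as deposited, upper-quartile scaling, quantile normalization, and GC and length trends removed, where the median was 0.015. Without WT replicate 3 only 4 of the 7 lay above 0, while the median was 0.050. Ndufaf5, which in human cells hydroxylates an arginine of the NDUFS7 protein early in assembly, measured 10.2, 10.3, 10.4 and 10.6 scaled FPKM in KO, against 9.60, 9.20, 9.15 and 10.1 in WT. The groups did not overlap, although they did with FPKM as deposited, and the difference was small (0.12, SE 0.052, limma adjusted p = 0.304). With GC and length trends removed it was 0.066, and with voom its unadjusted p was not under 0.05. Ndufaf1, a factor for the membrane arm, measured 20.4 ± 1.58 in KO and 18.9 ± 2.03 in WT, and Ndufaf2, a late factor, 24.2 ± 1.00 in KO and 23.6 ± 2.27 in WT (SD, n = 4 each). Ndufaf6, the gene below 0, measured 17.8 ± 0.514 in KO and 18.7 ± 2.23 in WT.

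Assembly factors not named Nduf were read from a list of 14, of which 11 were in the table. They include Acad9 and Ecsit, which work with Ndufaf1, and Aifm1 and Chchd4 of the import pathway. Of the 11, 9 lay above 0 with a median log2 fold change of 0.032, and 0 were called by limma, with 0 at an unadjusted p under 0.05 and 0 called by voom. Aifm1 had the smallest unadjusted p, at 50.9 ± 1.77 scaled FPKM in KO and 47.6 ± 0.756 in WT (SD, n = 4 each; log2 fold change 0.095, limma adjusted p = 0.337).

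Ndufa4 and Ndufa4l2 differed in level by a large factor. Ndufa4 measured 810, 683, 719 and 776 scaled FPKM in KO, against 719, 743, 712 and 744 in WT. It was the most abundant gene of the 45, and its WT values all lay inside the KO range (log2 fold change 0.032, 95% interval -0.11 to 0.17). Ndufa4l2, which hypoxia-inducible factors switch on and which is high in vascular smooth muscle and pericytes, measured 3.54, 4.70, 3.18 and 2.96 in KO, against 4.79, 4.28, 4.42 and 6.97 in WT. KO replicate 2 lay within the WT range and the other 3 KO libraries below it. The log2 fold change was -0.45 (SE 0.16, limma adjusted p = 0.258), and leaving out each library in turn moved it between -0.57 and -0.30.

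Of 9 genes of hypoxia-inducible factors and their targets, 6 lay below 0 (median -0.052) and 1 had an unadjusted p under 0.05, the factor gene Epas1. It measured 40.1 ± 3.80 scaled FPKM in KO and 45.9 ± 2.03 in WT (SD, n = 4 each; -0.19, limma adjusted p = 0.249). The 5 markers of stroma and smooth muscle, all detected in every library, summed to 41.2, 53.0, 48.05 and 36.9 scaled FPKM in KO, against 54.5, 40.1, 58.8 and 47.2 in WT. These sums overlapped. All 5 markers had log2 fold changes below 0 (median -0.14), and 0 of them had an unadjusted p under 0.05 in limma, 1 in voom, and 0 were called by either. Their part in the values of Ndufa4l2 was not tested.

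Across libraries the Nduf genes tended to move together. For each gene the deviation of its log2 value from its mean over the 8 libraries was taken, and the median over the 45 genes was 0.026, -0.073, -0.060 and 0.0035 in the KO libraries, against 0.062, 0.070, -0.049 and 0.020 in the WT libraries. KO replicate 1 was the highest KO library for 27 of the 45 genes and KO replicate 2 the lowest for 27. WT replicate 3 was the lowest WT library for 30 of the 45, and for 32 genes it lay nearer to the KO mean than to the mean of the other WT libraries. After removal of the group means, the median Pearson correlation between pairs of genes over the 8 libraries was 0.38 for the 45 genes. It was 0.55 for the 19 genes of the membrane arm, 0.50 for the 7 core genes and 0.073 for the 7 assembly factors. The 41 nuclear genes of complexes II to V, described below, gave 0.52, and the 7 mitochondrial complex I genes 0.45. Moving together was thus not particular to the Nduf genes. These are descriptions, since all pairs share the same libraries and their depth and base composition.

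**Figure D4:**
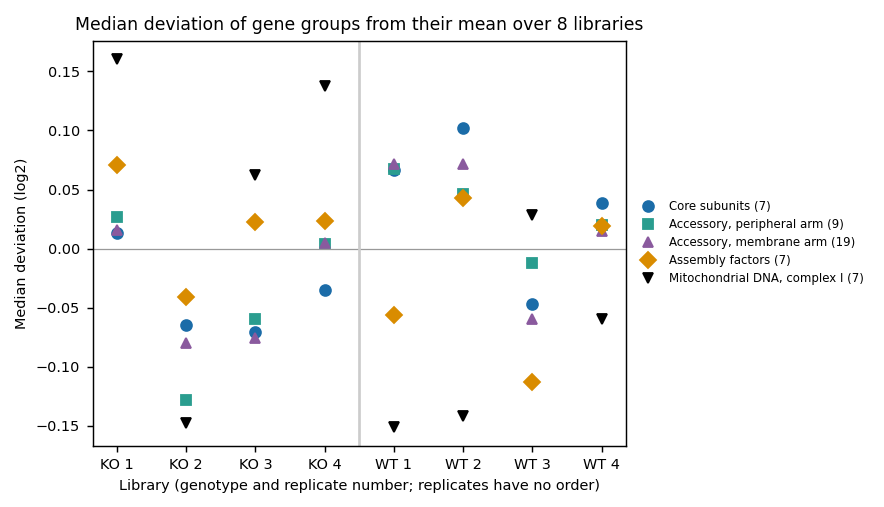
Median deviation (vertical axis, log2) of 5 groups of genes from their own mean over the 8 libraries, for each KO and WT library (horizontal axis); each symbol is the median over the genes of a group. The 3 groups of subunits lie above 0 in WT replicates 1, 2 and 4 and below 0 in WT replicate 3 and KO replicates 2 and 3.

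The counts depended on single libraries. Without WT replicate 3, 17 of the 45 genes (37.8%) were lower at an unadjusted p under 0.05, where 12.6% of all genes were, and 0 were higher (9.19% of all genes). The 17 were all that passed in either direction, where 21.8% of all genes did, and 33 of the 45 lay below 0, as did 50.7% of all genes. Without the same library 15 genes had groups that did not overlap, where 21.1% of all genes had, and 0 of the 45 were called by limma. Of the 17, 5 were core subunits, 3 accessory subunits of the peripheral arm, 7 of the membrane arm, 1 an assembly factor and 1 of the pair Ndufa4 and Ndufa4l2. Without KO replicate 2 the lower count was 3 (6.67%, against 7.43% of all genes). The higher count was 0 without KO replicate 1 or WT replicate 1, 1 without KO replicate 2, 3 or 4 or WT replicate 2, and 3 without WT replicate 4 (6.67%, against 6.19% of all genes). In the settings with a higher count of 0 or 1, between 4.76% and 9.19% of all genes were higher. The number of genes without overlap was 8 without KO replicate 1 (17.8%, against 10.9% of all genes), 5 without KO replicate 4 (11.1%, against 13.6%) and 6 without WT replicate 4 (13.3%, against 12.6%).

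The differences of the 45 genes varied with base composition. GC content ran from 39.5% to 60.7%, and Spearman's rho between it and the log2 fold change was -0.61 across the 45 genes, against -0.44 across all genes tested with a GC value. Without WT replicate 3, where more Nduf genes were lower, rho across the 45 genes was -0.66. These are correlations across genes, which are not independent replicates and share the libraries. Of the 15 genes with the lowest GC content 10 lay above 0, and of the 15 with the highest 14 lay below. Within single libraries, rho between GC content and the deviation of the 45 genes was -0.42, -0.15, -0.43 and -0.54 in KO, against 0.67, 0.51, -0.16 and 0.39 in WT, so that WT replicate 3 had the sign of the KO libraries. When trends with GC content and gene length over all genes were removed from each library, rho for the 45 was -0.090. The median log2 fold change was then -0.054 and again 32 of the 45 lay below 0. At an unadjusted p under 0.05, 4 were then lower and 0 higher. The shares of all genes in that setting are not given here, so a change of these genes cannot be told from one of all genes.

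**Figure D5:**
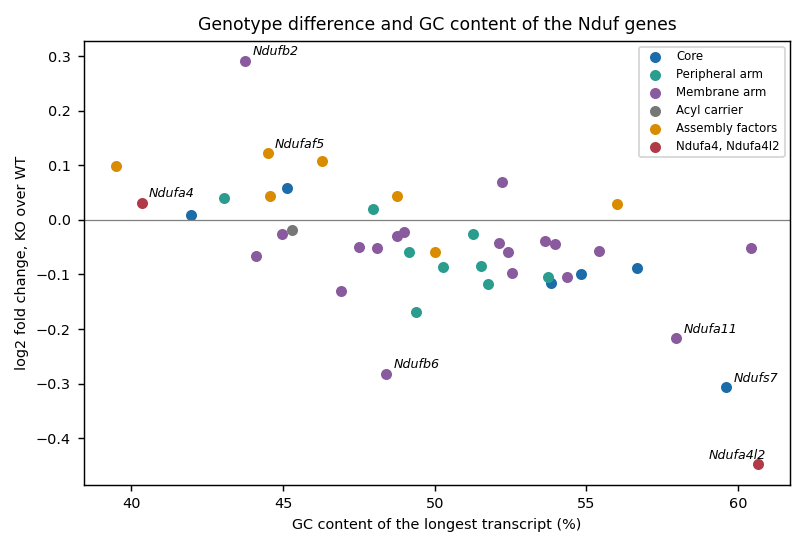
Genotype difference, KO over WT, on a log2 vertical axis against GC content of the longest transcript (horizontal axis, %) for 44 Nduf genes, coloured by role. Ndufs7, Ndufa11 and Ndufa4l2 lie at high GC content and below 0, while Ndufb2 and Ndufaf5 lie at low GC content and above 0.

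The genes of complex I in mitochondrial DNA lay on the other side of 0. All 7 of its genes lay above 0 (median log2 fold change 0.13), and 5 of the 7 did with GC and length trends removed. Quantile normalization, which gives genes of the same rank the same value in every library, put the median at 0. Of the 7, 0 were called by limma, with 2 at an unadjusted p under 0.05 and 0 called by voom. mt-Nd3 measured 60.5 ± 10.4 scaled FPKM in KO and 34.9 ± 6.76 in WT (log2 fold change 0.79, limma adjusted p = 0.113), and mt-Nd4l 55.6 ± 9.26 in KO and 40.6 ± 1.88 in WT (0.43, limma adjusted p = 0.169; SD, n = 4 each). The other mitochondrial complex I genes stood far higher, with group means from 4131 (mt-Nd6 in WT) to 9847 (mt-Nd1 in KO). mt-Nd3 and mt-Nd4l are also the shortest of the 7, at 348 and 297 bases, against 519 to 1824 for the others. Whether short length or the way reads were counted lowered their values was not tested, so both are uncertain. Their log2 fold changes ran from 0.011 for mt-Nd6 to 0.17 for mt-Nd2. For each read of a nuclear Nduf gene there were 6.70, 5.69, 6.49 and 6.54 reads of the mitochondrial complex I genes in KO, against 5.21, 5.35, 6.42 and 5.82 in WT. KO replicate 2 and WT replicates 3 and 4 made the groups overlap.

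A list of 41 nuclear genes of complexes II to V is read beside the Nduf genes. It also holds Cycs (cytochrome c) and Atpif1 (an inhibitor of ATP synthase), which do not encode subunits. The median log2 fold change of the 41 was -0.063, and 35 lay below 0 (26 with quantile normalization). Of the 41, 0 were called by limma, with 10 at an unadjusted p under 0.05 (24.4%, against 15.4% of all genes) and 0 called by voom. Of the 10, 9 were lower (21.95% of the 41, against 8.26% of all genes), Atpif1 among them (-0.25). The 1 that was higher was Cycs (0.20). Among 11 regulators of mitochondrial genes, Gabpa, a subunit of the ETS factor GABP, measured 9.87 ± 0.279 scaled FPKM in KO and 8.50 ± 0.574 in WT (SD, n = 4 each; 0.21, limma adjusted p = 0.190). Esrrg, the estrogen-related receptor gamma, measured 15.4 ± 0.658 in KO and 14.0 ± 1.05 in WT (0.14, limma adjusted p = 0.337). Esrra, the estrogen-related receptor alpha, measured 76.7 ± 1.58 in KO and 87.6 ± 11.8 in WT (-0.18, limma adjusted p = 0.354). Of the 11 regulators, 8 lay above 0, with a median log2 fold change of 0.044. No regulator (0 of 11) was called by limma, 1 had an unadjusted p under 0.05, and voom called 0.

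Markers of the cells richest in mitochondria were read beside the Nduf genes. All 10 markers of the proximal tubule were detected in every library. They summed to 4649, 4386, 4406 and 4568 scaled FPKM in KO, against 5185, 4970, 4649 and 5028 in WT, with WT replicate 3 and KO replicate 1 at nearly the same sum, of which Slc34a1 alone made 2422 ± 98.3 in KO and 2804 ± 159 in WT (SD, n = 4 each). The median deviation over the 10 markers, taken as for the Nduf genes, was -0.036, -0.037, -0.082 and -0.059 in KO, against 0.034, 0.056, 0.044 and 0.071 in WT, and by this measure the groups did not overlap. Of the 10, 7 lay below 0 and 3 above. At an unadjusted p under 0.05, 4 were lower (40%, against 8.26% of all genes) and 1 was higher (10%, against 7.18%). The higher one was Slc7a13, at 512 ± 36.1 in KO and 390 ± 72.2 in WT (SD, n = 4 each). Of the 10, 5 had groups that did not overlap (50%, against 8.62%), and 0 were called by limma or by voom. The 5 markers of the thick ascending limb summed to 2271, 2248, 2452 and 1996 in KO, against 1747, 2476, 1694 and 1982 in WT, and the 4 of the distal convoluted tubule to 401, 334, 306 and 341 in KO, against 396, 357, 405 and 379 in WT. Of the 5 markers of the thick ascending limb, 4 lay above 0 (median log2 fold change 0.12). All 4 of the distal convoluted tubule lay below 0 (median -0.19). In each of these lists 0 had an unadjusted p under 0.05 in limma. Whether these marker values bear on the values of the Nduf genes was not tested.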

How the data were processed

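Poly-T selected RNA of whole kidneys was sequenced, per the labels' protocols. The authors deposited 1 table of FPKM per gene and library. The submitters' processing notes name CASAVA, STAR 2.5, HTSeq 0.6.1, DESeq2 and the build mm10; their annotation release and strand setting are not stated. Multiplication by the listed length and division by a step per library gave whole reads for 100% of values within 0.01, which gave the depth of each library. Each library was divided by its median ratio to the geometric mean over libraries (factors 0.978 to 1.03). Genes with a mean of at least 0.5 were tested as log2(scaled FPKM + 0.5) with limma 3.58.1 in R 4.3.3 (trend on mean level), KO against WT, and p-values were adjusted over 14022 genes by Benjamini-Hochberg. Fold changes are on that scale, which understates those of low genes. GC content came from GENCODE vM21. Values per library are given for the core subunits, the 10 members with the smallest unadjusted p, Ndufa4 and Ndufa4l2, and the members of highest and lowest level; other members are named by mean level. Havcr1 was named for WT replicate 3, after its values were seen. The members, lists and this rule were chosen with earlier results of these data known. Alternatives changed the pseudocount, filter, scaling, test, GC trend and each library in turn. The labels call the 4 mice of a genotype biological replicates. Ndufaf8 was not analysed here. The values of 1 gene are not reported here, and it is left out of the plots of single genes, while counts and medians include it.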

Additional observations from a re-analysis of the deposited data

Results flagged for a closer look

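In 6 of 90 groups of 4 libraries (45 genes in 2 genotypes), 1 library lay far from the other 3 by Dixon's test at 95%, where chance gives about 1 in 20 groups. KO replicate 2 was the lowest KO library for Ndufa7 (104 scaled FPKM) and for Ndufa12 (93.9). KO replicate 1 was the highest for Ndufb4 (93.9), and KO replicate 3 the highest for Ndufaf6 (18.6). WT replicate 3 was the lowest WT library for Ndufa11 (26.4), and WT replicate 4 the highest for Ndufaf4 (15.9).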

How the results depend on the processing

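The count of called Nduf genes was 0 under every alternative run, and their median log2 fold change stayed below 0, between -0.07 and -0.02 when each library was left out in turn. The number of genes whose groups do not overlap was 5 with FPKM as deposited (11.1%, against 8.73% of all genes) and 7 with upper-quartile scaling (15.6%, against 8.46%). For the next settings the shares of all genes higher at an unadjusted p under 0.05 are not given here. The number of Nduf genes higher was 1 with quantile normalization, 1 with voom and 0 with GC and length trends removed. With those trends removed, Ndufv2 (-0.0598) and Ndufa4 (-0.0925) changed sign. The log2 fold change was then -0.118 for Ndufa11, -0.0504 for Ndufs8, -0.0734 for Ndufs3 and 0.0198 for Ndufs1. Ndufs7 was at -0.212 (limma adjusted p = 0.289). Ndufb6 (-0.318) and Ndufa7 (-0.193) instead lay farther from 0 than in the main fit. The cause was not tested. Leaving out each library in turn gave 5 to 16 called genes in the whole table, 3 to 17 Nduf genes lower and 0 to 3 higher at an unadjusted p under 0.05, and 3 to 15 without overlap. It moved Ndufv2 between -0.0139 and 0.0381 and Ndufa4 between -0.00909 and 0.0734. The 16 came without WT replicate 3. No paired analysis was possible because the replicate numbers only name the mice of each genotype and the labels pair none of them. Ndufa4l2 and Ndufb2 rest on the fewest reads, which limits their precision.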
